A study of Mus musculus with 2 samples.

Results

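The collagen genes are the protein-coding genes of the mouse annotation GENCODE M21 whose names read Col, a type number, a and a chain number. By that rule 44 genes were chosen, from 21474 protein-coding genes with a row in the gene tables and 69691 rows in all, and every member was matched by gene identifier in both tables. RNA was taken from hearts of B6NCrl mouse embryos of both sexes at 16.5 days of development, as 2 libraries of 1 group. Each library came from pooled hearts, of 41 embryos in replicate 2 and of an unstated number in replicate 1. No genotype, treatment or other age was set against these hearts, so the values below describe levels, and differences between replicate 1 and replicate 2 compare pools and library preparations that cannot be told apart.

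Collagens are secreted proteins in which 3 chains wind into a triple helix, and a helix needs a glycine in every repeat of Gly-X-Y. Fibrillar collagens (types I, II, III, V, XI, XXIV and XXVII) build the tension-bearing fibrils of the interstitium and valves, type IV forms the sheet-like network of basement membranes, and type VI forms beaded filaments around cells. In the heart, fibroblasts, valve interstitial cells and vessel walls are known sources of fibrillar collagen, and endothelial and muscle cells are surrounded by type IV collagen.

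The repeat can be read in the messages themselves. Shown here, because these 5 genes include the highest members of the fibrillar and the basement membrane class, are 30 codons each of the annotated coding sequence (GENCODE M21, GRCm38, coding strand), with glycine codons (GGN) in capitals. Those of the fibrillar genes Col3a1, Col1a1 and Col1a2 are the first 30 codons of the longest run of Gly-X-Y, and those of Col4a1 and Col4a2 are the last 15 codons of theirs with the 15 codons after it.
Col3a1: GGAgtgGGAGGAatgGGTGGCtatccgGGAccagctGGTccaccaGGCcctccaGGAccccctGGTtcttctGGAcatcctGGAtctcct
Col1a1: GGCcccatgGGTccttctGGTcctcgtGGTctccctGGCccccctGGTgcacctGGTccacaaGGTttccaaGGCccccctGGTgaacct
Col1a2: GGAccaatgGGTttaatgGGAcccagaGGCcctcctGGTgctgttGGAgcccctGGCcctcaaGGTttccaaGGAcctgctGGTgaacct
Col4a1: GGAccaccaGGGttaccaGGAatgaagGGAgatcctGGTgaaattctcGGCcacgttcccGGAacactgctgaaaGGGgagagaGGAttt
Col4a2: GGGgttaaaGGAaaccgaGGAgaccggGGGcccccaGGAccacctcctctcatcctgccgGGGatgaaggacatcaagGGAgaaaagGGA
In the fibrillar stretches a glycine codon recurs every 3 codons without a break, with extra ones between in Col3a1, and in the type IV stretches that spacing is interrupted. The longest unbroken run was 344 triplets in Col3a1, 338 in Col1a1 and 339 in Col1a2. Over the 11 fibrillar genes it ran from 216 (Col24a1) to 344, whereas over the 6 basement membrane genes it ran from 39 (Col4a3) to 66 (Col4a2). The 44 members spanned 23 (Col26a1) to 344 triplets. The share of codons in runs of at least 5 triplets was 75.2% to 79.5% in the basement membrane genes and 53.5% to 77.2% in the fibrillar genes.

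Of the 44 collagen genes, 30 reached 1 TPM, a level relative to all transcripts and corrected for their length, in both libraries. That is 68.2% of members, beside a background of 59.1% of all protein-coding genes. By mean level, 4 members stood at 100 TPM or more, 13 between 10 and 100, 15 between 1 and 10 and 12 between 0.1 and 1. No member was at 0 counts. A count of 3 at the median member length equal 0.0235 TPM in replicate 1 and 0.0214 TPM in replicate 2, and intervals and floors cover counting and assignment error only. Collagen genes together held 0.336% of protein-coding TPM in replicate 1 and 0.276% in replicate 2 (mean 0.306% ± 0.0424, SD, n = 2). The 3 highest members, Col3a1, Col1a1 and Col1a2, held 69.1% of all collagen TPM, and the 10 highest held 92.3%.

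**Figure D1:**
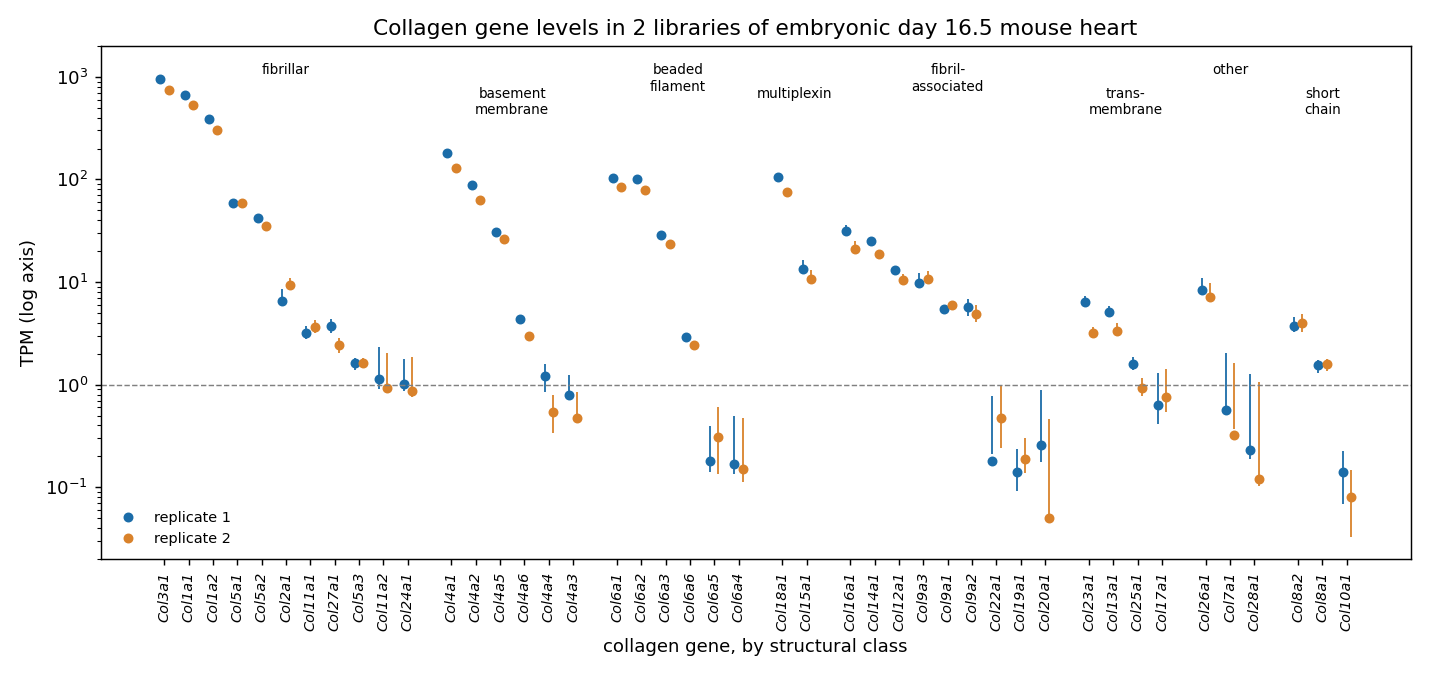
TPM of the 44 collagen genes (log axis) in replicate 1 (blue) and replicate 2 (orange), grouped by structural class with the highest class total on the left. Vertical lines are the deposited credibility intervals and the dashed line is 1 TPM; levels ran from 0.05 TPM (Col20a1, replicate 2) to 952.22 TPM (Col3a1, replicate 1).

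Fibrillar members carried 73.6% ± 0.625 of collagen TPM (SD, n = 2). Col3a1, whose product forms the thin fibrils of compliant tissue, read 952.22 TPM in replicate 1 and 741.20 TPM in replicate 2, and ranked 120 among protein-coding genes by mean level. Col1a1, the first chain of the stiffer type I fibril, read 667.75 and 531.56 TPM. Col1a2, its partner chain, read 385.95 and 304.37 TPM. The order of these 3 genes was the same in both libraries, with deposited intervals that did not overlap within a library. The values of these 3 genes, and of Col4a1, lay just above their own intervals in both libraries, as for Col3a1 in replicate 1 (920.02 to 948.34 TPM). A deposited interval thus need not hold the TPM it belongs to, which also bears on the calls made from separate intervals.

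Type V chains, which start fibrils and set their diameter, came next among fibrillar genes. Col5a1 read 59.48 and 59.11 TPM and Col5a2 read 42.00 and 35.56 TPM, while Col5a3, the third type V chain, read 1.61 and 1.64 TPM. Type XI chains, the relatives of type V in cartilage, were lower: Col11a1 read 3.18 and 3.67 TPM, and Col11a2 read 1.13 and 0.93 TPM. Col27a1 read 3.75 and 2.41 TPM, and Col24a1 read 1.01 and 0.87 TPM. So the class total rested on 5 of its 11 members, and the other 6 were under 10 TPM in each library.

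Basement membrane members held 10.1% ± 0.476 of collagen TPM. Col4a1 read 179.68 and 129.79 TPM and Col4a2 read 87.69 and 63.68 TPM; these chains make the type IV network found in nearly all basement membranes. Col4a5 read 30.68 and 26.47 TPM, and Col4a6, a chain of smooth muscle and epithelial basement membranes, read 4.32 and 2.99 TPM. Col4a3 read 0.79 and 0.47 TPM and Col4a4 read 1.21 and 0.54 TPM; both are known from the filtration barrier of the kidney. The 6 type IV genes thus fell into an order that both libraries gave, apart from Col4a3 and Col4a4, whose intervals overlapped.

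Beaded filament members held 8.23% ± 0.106 of collagen TPM. Col6a1 read 104.07 and 83.78 TPM, Col6a2 read 100.33 and 79.62 TPM and Col6a3 read 29.03 and 23.26 TPM, all 3 being chains of the same type VI molecule. Of the later described type VI chains, Col6a6 read 2.94 and 2.43 TPM, Col6a5 read 0.18 and 0.31 TPM and Col6a4 read 0.17 and 0.15 TPM. The multiplexin Col18a1, a basement membrane proteoglycan whose C-terminal piece is endostatin, read 106.09 and 75.02 TPM. Its level was above that of Col6a1 in replicate 1 and below it in replicate 2, so these genes have no fixed order here. Its relative Col15a1 read 13.28 and 10.76 TPM.

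Fibril-associated members, which sit on the surface of fibrils, held 3.15% ± 0.024 of collagen TPM. Col16a1 read 31.33 and 21.03 TPM, Col14a1 read 25.10 and 18.57 TPM and Col12a1 read 13.02 and 10.48 TPM. The 3 genes of type IX collagen, a cartilage collagen in textbooks, read 9.88 and 10.64 TPM (Col9a3), 5.41 and 6.04 TPM (Col9a1) and 5.66 and 4.84 TPM (Col9a2). Col22a1, a collagen of muscle-tendon junctions, read 0.18 and 0.47 TPM, Col19a1 read 0.14 and 0.19 TPM and Col20a1 read 0.26 and 0.05 TPM. The last 3 were thus the members of this class under 1 TPM in both libraries.

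Transmembrane members held 0.417% of collagen TPM. Col23a1 read 6.46 and 3.20 TPM, Col13a1, found at neuromuscular and cell-matrix junctions, read 5.06 and 3.35 TPM, Col25a1 read 1.59 and 0.93 TPM, and Col17a1, of epithelial hemidesmosomes, read 0.64 and 0.75 TPM. Col26a1 read 8.36 and 7.07 TPM. Col7a1, the anchoring fibril of skin, read 0.56 and 0.32 TPM, and Col28a1 read 0.23 and 0.12 TPM. Among short chain collagens, Col8a2 read 3.77 and 3.96 TPM and Col8a1 read 1.55 and 1.60 TPM, both known from vessels and the cornea. Col10a1, the marker of hypertrophic cartilage, read 0.14 and 0.08 TPM and had the lowest mean of the 44.

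Col2a1, the main fibrillar collagen of cartilage that is also made in embryonic heart valves, read 6.50 and 9.35 TPM. Of 14 cartilage marker genes, 8 reached 1 TPM in both libraries (57.1%, beside 59.1% of all protein-coding genes), and the list's summed level was 49.1 TPM in replicate 1 and 47.69 TPM in replicate 2. Sox9, the regulator of chondrogenic and valve cells, read 16.7 and 15.81 TPM, and Acan, the aggrecan core protein, read 1.18 and 1.04 TPM. Snorc was listed at 0 in replicate 1 and Matn1 read 0.39 and 0.92 TPM. Whether cells of cartilage type contributed to these values was not tested.

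The ratios Col1a1 over Col1a2 and Col4a1 over Col4a2 were nearly equal in both libraries. Of 18 pairs of collagen genes, 15 were called apart, meaning that both libraries gave the same direction and intervals did not overlap in either. The first gene named was higher in 11 and the second in 4. The share of other gene pairs that this rule would call was not computed. The count was thus not shown to be particular to collagen genes. Col1a1 exceeded Col1a2 by 0.80 ± 0.01 on the log2 scale (SD, n = 2), which is 1.74-fold. Col4a1 exceeded Col4a2 by 1.03 ± 0.01, which is 2.04-fold. In type I molecules, and in type IV molecules of Col4a1 and Col4a2 chains, a pair of alpha1 chains joins a single alpha2 chain. Col6a1 over Col6a2 was 0.06 ± 0.01 and was not called apart, and Col6a3 over Col6a1 was -1.85 ± 0.00482. On protein-coding transcripts alone that last ratio was -2.99. The type VI molecule holds the 3 chains in equal numbers. All these ratios are of RNA, and the numbers of protein chains were not measured.

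Col3a1 over Col1a1 was 0.50 ± 0.02 at the gene level, called apart. On protein-coding transcripts at least 50% as long as the longest one it was -0.012, within its SD of 0, with the libraries in opposite order, so the higher level of Col3a1 rested on a short transcript described below. Col5a1 exceeded Col5a2 by 0.62 ± 0.16 and Col5a3 by 5.19 ± 0.03. Col11a1 stood 4.12 below Col5a1 on the log2 scale (-4.12 ± 0.15), and Col4a5 exceeded Col4a6 by 2.99 ± 0.22. Col4a3 over Col4a4 (-0.41 ± 0.29) and Col9a1 over Col9a2 (0.13 ± 0.27) were the remaining pairs not called apart.

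**Figure D2:**
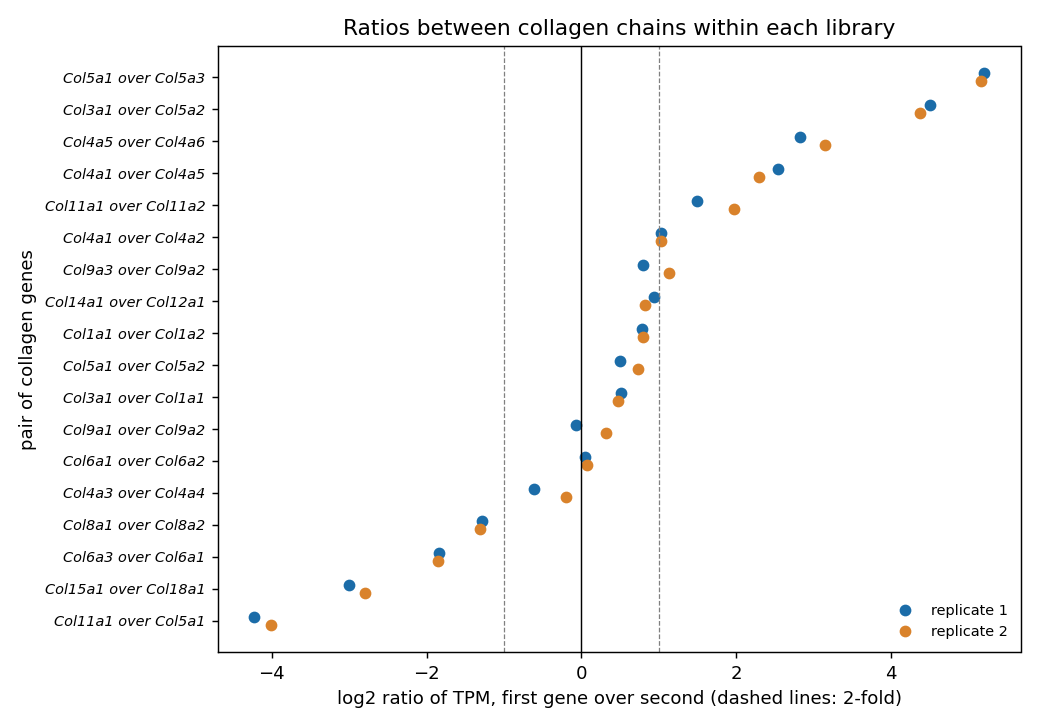
Log2 ratio of TPM within each library for 18 pairs of collagen genes, with replicate 1 in blue and replicate 2 in orange; the solid line is equal level and dashed lines are 2-fold. The points of Col1a1 over Col1a2 (0.79 and 0.80) and of Col4a1 over Col4a2 (1.03 in each) almost coincide.

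Collagen genes are spread over 15 chromosomes, and 15 of the 44 lie within 200000 bases of another. They form 8 neighbouring pairs with no other protein-coding gene between them: 3 head to head, 2 tail to tail and 3 on the same strand. The 3 head to head pairs are those of type IV. Col4a1 (chr8:11198423-11312826, minus strand) and Col4a2 (chr8:11312805-11449287, plus strand) overlap by 22 bases at their starts, Col4a4 and Col4a3 lie 71 bases apart on chromosome 1, and Col4a6 and Col4a5 lie 1308 bases apart on the X chromosome. Shown because they are the point from which both genes run, the 30 bases at chr8:11312801-11312830 (RefSeq, GRCm38.p6, plus strand) have the bases annotated in both genes in capitals.
Col4a1 and Col4a2: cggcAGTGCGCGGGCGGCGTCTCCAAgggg
Levels within the head to head pairs were 1.03 apart on the log2 scale for Col4a1 over Col4a2 and 2.99 for Col4a5 over Col4a6, both called apart, while Col4a4 over Col4a3 (0.41 ± 0.29) was not. Differences between replicates (log2, replicate 2 over replicate 1) were -0.47 and -0.46 for Col4a1 and Col4a2, -0.52 and -0.21 for Col4a6 and Col4a5, and -1.03 and -0.64 for Col4a4 and Col4a3. Strand was not known to be used in counting, so reads from the 22 shared bases cannot be told apart.

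RefSeq promoter windows (GRCm38.p6, 250 bases before to 50 after a start) were at hand for 35 of the 44 genes, as 38 entries. The GC box GGGCGG, on either strand, was in 23 of the 38 (60.5%), beside 35.7% of the 32851 windows searched. The 38 are not independent: the windows of Col4a1 and Col4a2 overlap, as do those of Col6a2. A GC box in the bases shared by Col4a1 and Col4a2 counts for both. CCAAT was in 13 (34.2%, beside 37.4%) and TATAAA in 5 (13.2%, beside 13.6%), each also searched on both strands. None of these motifs lies within another, but matches can share letters at their ends, and whether any did was not checked. The median of observed over expected CG dinucleotides was 0.456 over the 38 entries, beside 0.384 over all windows searched. At 0.6 or more stood 28.9% of the entries, beside 35.8%. Col3a1, the highest member, had no CG dinucleotide in its window (observed over expected 0), like Col28a1 and a Col9a1 window, while Col4a1 had 0.902. The 250 bases before the Col3a1 start (chr1:45311288-45311537, plus strand) are shown for that contrast, with TATAAA in capitals at position -117 from the start.
Col3a1: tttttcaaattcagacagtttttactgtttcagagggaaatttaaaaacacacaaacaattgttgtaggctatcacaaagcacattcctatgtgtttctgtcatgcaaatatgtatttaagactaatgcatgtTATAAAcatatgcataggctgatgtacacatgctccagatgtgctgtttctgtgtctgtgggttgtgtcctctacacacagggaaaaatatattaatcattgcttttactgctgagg
Such a match says only that the letters are present.

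For the 32 members whose mean was 1 TPM or more, the median share on protein-coding transcripts was 99.2%, and 22 of them were at 90% or more. On protein-coding transcripts at least 50% as long as the longest, the median share was 94.4%, and 18 were at 90% or more. The protein-coding share was under 70% in 4: Col27a1 (32.9%), Col6a3 (45.2%), Col16a1 (51.0%) and Col25a1 (62.5%). In 9 of the 31 members with several transcripts, a transcript under 50% of the length of the longest coding one held at least 20% of the gene's TPM in both libraries. That is 29.0% of members, beside a background of 21.6% of genes. Among genes whose longest coding transcript was at least 2781 nt, the lowest such length among these members, it was 29%. The members' share was thus no higher than in that set, which was not otherwise matched to their lengths. All 9 of these short transcripts start in the downstream 50% of their gene, beside 26.8% of such transcripts over all genes. The latter share was not restricted to long genes, so this contrast was not shown to be particular to collagen genes.

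For Col3a1 the short transcript was Col3a1-205 (737 nt, 6 exons), which read 277.31 and 218.83 TPM, or 29.3% ± 0.283 of the gene. The full-length Col3a1-201 read 669.24 and 513.80 TPM, close to the 665.56 and 525.62 TPM of Col1a1-201. For Col6a3 a retained-intron transcript of 646 nt, Col6a3-206, held 53.2% ± 3.73. Others were Col12a1-204 (42.6%), Col27a1-205 (41.5%), Col15a1-203 (37.9%), Col16a1-207 (33.7%), Col14a1-204 (31.0%), Col9a2-202 (29.2%) and Col11a1-204 (27.0%). How reads were divided among transcripts is an estimate, and the part of coverage along the message in these shares was not tested.

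**Figure D3:**
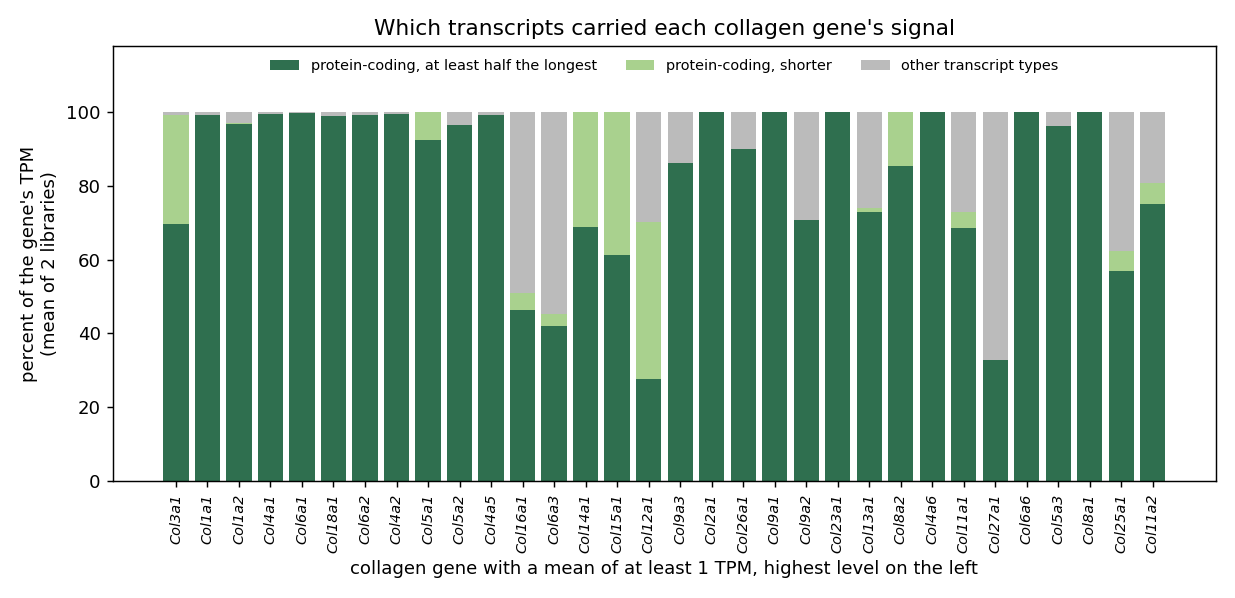
Percent of each gene's TPM (mean of 2 libraries) on protein-coding transcripts at least 50% as long as the longest (dark green), on shorter protein-coding transcripts (light green) and on other types (grey), for 32 members. In 18 of the 32 bars dark green covers at least 90%; Col27a1, Col6a3, Col16a1 and Col12a1 stand out with dark green below 50%.

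For Col2a1, Col9a1 and Col18a1 the transcripts map to forms known from other tissues. Col2a1 is spliced with or without exon 2, which encodes a cysteine-rich domain of the propeptide; the form with it is known from chondrogenic precursors and non-cartilage tissue, and the form without it from mature cartilage. Col2a1-202, without exon 2, read 3.78 and 6.03 TPM, or 61.4% ± 4.44 of the gene, and Col2a1-201, with it, read 2.71 and 3.32 TPM. Intervals of the forms touched or overlapped in neither library (3.14 to 4.93 against 1.42 to 3.13 TPM in replicate 1, and 5.02 to 7.03 against 2.21 to 4.05 TPM in replicate 2). Exon 2 (chr15:98000403-98000606, minus strand, coding, 204 bases, GENCODE M21) is shown because it is what separates the forms, with its 10 cysteine codons in capitals.
Col2a1: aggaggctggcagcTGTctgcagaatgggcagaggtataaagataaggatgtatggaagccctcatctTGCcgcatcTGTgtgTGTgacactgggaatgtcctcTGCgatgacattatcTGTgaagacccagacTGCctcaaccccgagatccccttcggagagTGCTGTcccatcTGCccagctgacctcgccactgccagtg
Both forms were thus present, and the form lacking this exon was the higher in each library.

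Col9a1 is made from an upstream start as a long form, known from cartilage, or from a downstream start as a short form that lacks a large N-terminal domain, known from the eye. Col9a1-202, which begins 23.4% of the way into the gene, held 88.7% ± 4.53, with 4.97 and 5.16 TPM. Col9a1-201, from the upstream start, read 0.44 and 0.88 TPM. Col18a1 likewise has an upstream start that gives the short form of vascular and epithelial basement membranes, and downstream starts that give longer proteins. Col18a1-202, from the upstream start, held 97.7% ± 0.0778 with 103.74 and 73.28 TPM, and Col18a1-201 and Col18a1-203, from downstream starts, were at 1.09 TPM or less.

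Collagen genes were lower in replicate 2 than in replicate 1. Of the 32 members whose mean was 1 TPM or more, 25 were lower in replicate 2 (78.1%, beside 61.8% of 12987 protein-coding genes). The median log2 ratio of TPM + 0.1, replicate 2 over replicate 1, was -0.31, beside -0.06 over those genes. With intervals also separate, 19 of 32 were lower (59.4%, beside 20.2%) and 1 was higher (3.13%, beside 9.76%). Intervals narrow with level: among the 17 members at 10 TPM or more, 13 were lower with separate intervals (76.5%, beside 23.9% of genes at that level) and none was higher (beside 10.7%). With 1 library per pool these are differences between 2 libraries, with no test.

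**Figure D4:**
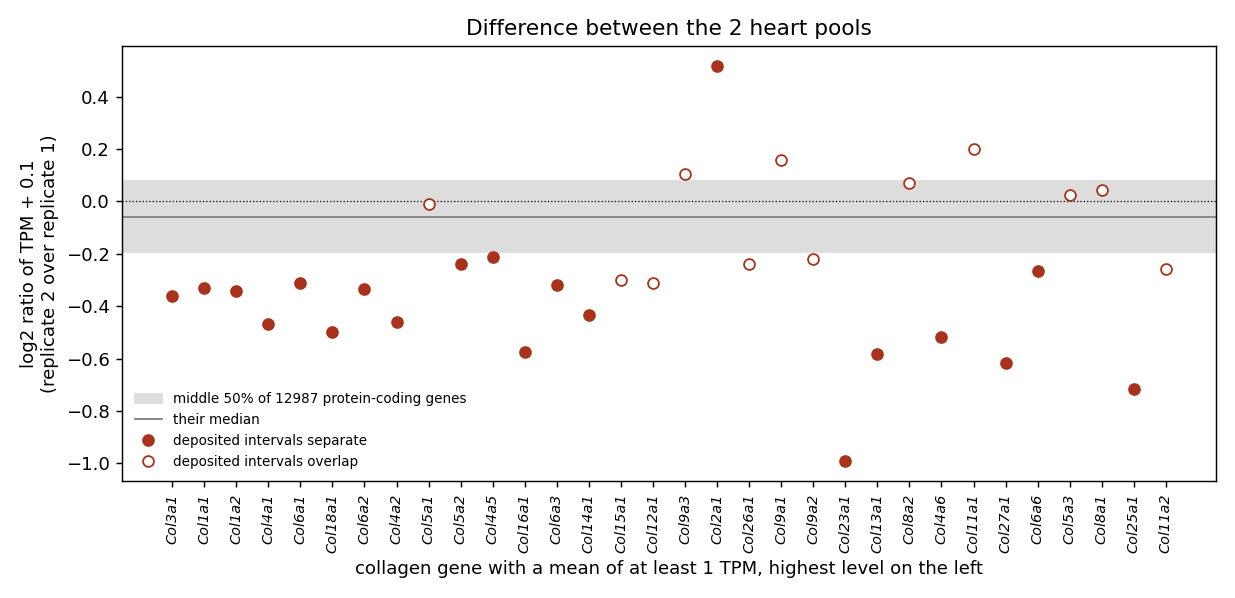
Log2 ratio of TPM + 0.1, replicate 2 over replicate 1, for the 32 collagen genes averaging 1 TPM or more, highest level on the left; filled points have separate deposited intervals. The grey band holds the middle 50% of 12987 protein-coding genes (-0.19 to 0.08) and the grey line their median (-0.06); most members lie below the band, and Col2a1 lies highest.

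More than 1.5-fold lower with separate intervals were 3 members, Col23a1 (-0.99), Col25a1 (-0.71) and Col27a1 (-0.62), 9.38% of members beside a background of 2.53%. None was that much higher (background 2.97%), and none passed 2-fold in either direction on this scale (0.97% lower and 1.53% higher over all genes). The added 0.1 lowers the ratios of low genes: on TPM alone Col23a1 was 2.02-fold and Col13a1, not called, was 1.51-fold lower in replicate 2, both with separate intervals. Col27a1 was not called when TPM was rescaled without spike-ins, and only Col23a1 was called with a pseudocount of 1. Without a minimum level Col4a4 (-1.03) was called too. Among the 10 highest members, Col18a1 (-0.50), Col4a1 (-0.47) and Col4a2 (-0.46) were lowest in replicate 2 relative to replicate 1, and Col5a1 (-0.01) differed by less than its interval. That holds for the gene's TPM only. The full-length Col5a1-201 read 59.48 TPM in replicate 1 and 50.20 TPM in replicate 2, with separate intervals. On counts scaled by TMM, Col5a1 was at -0.17. Col2a1 (0.52, or 1.44-fold on TPM alone) was the member that was higher with separate intervals.

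Spike-in RNAs held 3.25% of TPM in replicate 1 and 6.65% in replicate 2. Rescaled without them, the collagen median was -0.26 and that of all protein-coding genes -0.01, and 24 of 32 members were lower (75%, beside 51.4%). Markers of other tissues moved between the libraries too. Of 9 lung epithelial markers, all 8 averaging 1 TPM or more were lower in replicate 2, and their summed level went from 947.46 to 109.13 TPM, led by Sftpc (883.14 and 96.71 TPM). The 9 thymocyte markers summed to 81.76 and 221.93 TPM, with all 7 above that average called higher in replicate 2. The 10 skeletal muscle markers summed to 196.56 and 265.99 TPM, most of it Acta1 (163.57 and 196.56 TPM), with Pax7 listed at 0 in replicate 2. All 7 averaging 1 TPM or more were higher in replicate 2 (median log2 ratio 0.94), and 6 of them were called. Of 9 fibroblast markers, 6 were lower in replicate 2 (median log2 ratio -0.24), with Mfap4 (-0.93) and Pdgfra (-0.66) called lower; their sum, 962.49 and 919.72 TPM, was led by Postn (331.71 and 382.24 TPM) and Dcn. Endothelial markers summed to 461.09 and 407.82 TPM (6 of 7 lower) and smooth muscle and pericyte markers to 1466.59 and 1235.09 TPM (8 of 8 lower). The 9 heart muscle markers summed to 39141.77 and 38002.74 TPM, with 4 lower and 5 higher in replicate 2. Of 6 epicardial and mesothelial markers 1 was lower and 5 were higher, and of 7 macrophage markers 2 were lower and 5 higher. Among stratified or airway basal epithelial markers averaging 1 TPM or more, 1 of 5 was lower in replicate 2. At that level 6 of 8 cartilage and 2 of 3 bone markers were lower, and all 3 Schwann cell and neuron markers were higher. Of these lists only the basal epithelial one held calls, 1 lower and 1 higher. Beside these counts, 61.8% of all protein-coding genes averaging 1 TPM or more were lower in replicate 2. Of those genes, 2.53% were called lower and 2.97% higher. In such tissue RNA, fewer cells of a type and less RNA per cell cannot be told apart, and the part of any of these in the collagen difference was not tested.

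Genes that make, process and bind collagen were measured alongside. Of 24 measured genes of collagen synthesis, folding and export, all 24 reached 1 TPM in both libraries (100%, beside 59.1% of all protein-coding genes). Sparc, an extracellular collagen-binding protein, read 1752.46 and 1513.08 TPM. Serpinh1, the collagen chaperone HSP47, read 878.27 and 848.28 TPM. P4hb, a subunit of prolyl 4-hydroxylase, read 366.45 and 349.96 TPM, Ppib, a prolyl isomerase, read 282.33 and 259.86 TPM, Kdelr2, a retrieval receptor, read 160.71 and 159.89 TPM, and Crtap, of the prolyl 3-hydroxylation complex, read 110.26 and 109.92 TPM. The list's median log2 ratio between libraries was -0.12, beside -0.06 over all protein-coding genes averaging 1 TPM or more. None of the 24 was called over 1.5-fold apart, beside 2.53% of those genes called lower and 2.97% called higher.

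Of 13 genes that process and crosslink procollagen, 10 reached 1 TPM in both libraries (76.9%, beside 59.1% of all protein-coding genes). Pcolce, an enhancer of propeptide removal, read 106.12 and 93.59 TPM. The lysyl oxidases Loxl2, Loxl1 and Lox read 51.38 and 39.17, 40.17 and 36.93, and 41.5 and 30.11 TPM. Bmp1, which removes the C-propeptide, read 28.85 and 22.59 TPM, and Adamts2, which removes the N-propeptide, read 8.2 and 6.53 TPM. All 10 averaging 1 TPM or more were lower in replicate 2, beside 61.8% of all protein-coding genes at that level. Their median log2 ratio was -0.25, beside -0.06, and none was called, beside 2.53% called lower.

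Among 12 receptors and uptake genes, 9 reached 1 TPM in both libraries (75%, beside 59.1% of all protein-coding genes). Itgb1, the beta subunit of collagen-binding integrins, read 289.25 and 278.18 TPM, Ddr1, a collagen-activated kinase, read 107.87 and 87.24 TPM, and Itga1 read 18.33 and 15.76 TPM. Cspg4, a pericyte proteoglycan that binds type VI collagen, read 19.62 and 13.66 TPM, Adgrg1, a receptor for type III collagen, read 9.62 and 14.04 TPM, and Ddr2 read 10.85 and 8.36 TPM. Mrc2 (-0.68) and Itga2 (-0.67) were called lower in replicate 2, by the same rule whose background is 2.53%. Of 13 collagen-binding matrix proteins, 12 reached 1 TPM in both libraries (92.3%, beside 59.1%). They were led by Dcn (241.1 and 261.82 TPM), Fn1 (147.16 and 125.3 TPM) and Lum (90.54 and 87.68 TPM). Next came Bgn (84.3 and 79.28 TPM), Dpt (72.24 and 76.47 TPM) and Ogn (41.87 and 43.07 TPM). Thbs1 (-0.83) was called lower in that list, whose median was -0.11.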

How the data were processed

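Total RNA longer than 200 nt was sequenced from 2 heart pools, 10 ng per library, with ERCC spike-ins, per the labels. Per the submitters' processing notes, the authors used genome build mm10 and annotation M4; the quantification tool and strand setting: not given in the sources used here. Values deposited by the authors are estimated counts per gene or transcript, with no normalization, made from the reads of 1 library. The authors also deposited TPM over all rows including spike-ins, its credibility intervals (level unstated) and each transcript's percent of its gene. Depth was 37160624 and 40360242 estimated counts.

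Names and coordinates came from GENCODE M21 (GRCm38, the assembly of mm10) by identifier without version, and 198 of 201 member transcripts matched. Structural classes came from a list drawn up for this report. Log2 ratios between libraries used TPM + 0.1 for genes averaging 1 TPM or more. TMM factors (edgeR 4.0.16) were 0.995 and 1.00; the scaling was tested on simulated data. With 1 group of 2 libraries no p-value was computed: the smallest a sign-flip test allows is 0.5. Nothing in the labels says the pools came from separate litters, so the spread may be partly technical. Named genes were all members, the 6 highest of each pathway list, the leading markers, and transcripts leading or at 20% or more; Mrc2, Itga2, Thbs1, Mfap4, Pdgfra, Acan, Snorc, Matn1 and Pax7 were named after their values were seen. In the biosynthesis list, Ctage5 had no match. The members and lists were chosen with earlier results of these data known. Analyses used Python 3.11.15, pandas 2.3.3 and R 4.3.3. Alternatives tried were posterior means, protein-coding transcripts only, uncorrected counts, other scalings, pseudocounts, thresholds and each library left out.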

Additional observations from a re-analysis of the deposited data

How the results depend on the processing

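Over 13 results, 78 alternative values were computed. Of these, 22 left out a library, which for a mean of 2 says nothing about stability. Of the other 56, 30 stayed within the SD between libraries, within 1.5 times for counts or within 0.1 for the median log2 ratio, 23 moved and 3 changed sign. Those 3 were of Col3a1 over Col1a1, at -0.012 both with the longest coding transcript only and with long coding transcripts only, which is within its SD of 0 and the same transcript value, and -0.035 with uncorrected counts. These transcript settings were chosen after seeing the data, and the second was added after the first had picked near-empty transcripts for some members. No paired analysis was possible because the series has a single group.

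With protein-coding transcripts only, the fibrillar share was 74.5%, the beaded filament share 7.84%, Col1a1 over Col1a2 0.83 and Col6a3 over Col6a1 -2.99. With long coding transcripts only, the fibrillar share was 72.2%, the basement membrane share 11.6%, the beaded filament share 8.75%, Col1a1 over Col1a2 0.83 and Col6a3 over Col6a1 -3.09. With the longest coding transcript only, collagen genes held 0.378% of protein-coding TPM, the fibrillar share was 80.7%, the basement membrane share 12.4%, the beaded filament share 4.91%, Col1a1 over Col1a2 0.83 and Col6a1 over Col6a2 5.69; Col6a3 over Col6a1 had no value, as Col6a3's was listed at 0 in replicate 2. With uncorrected counts, Col1a1 over Col1a2 was 0.97, Col4a1 over Col4a2 1.07, Col6a1 over Col6a2 0.11 and Col6a3 over Col6a1 -1.85, which was -1.83 with posterior means. Members over 1.5-fold apart fell to 1 with a pseudocount of 1 and to 0 at a 2-fold threshold. The median coding share was 97.3% with posterior means and 99.07% to 99.14% with either library left out. The cause of each move was not tested beyond which transcripts a setting keeps. Depth limits the 12 members under 1 TPM most.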
